A study of Mus musculus with 4 samples.

Results

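The chemokine genes are those whose name on the array was Cxcl or Ccl followed by a number, together with Ppbp, Pf4, Cx3cl1 and Xcl1. They comprised 34 genes read by 43 of the 41174 gene probes, which carried 27745 gene names. Pf4 was listed as Cxcl4. The brightest probe of each gene was used, and 9 genes had more than 1 probe. Chemokines are small secreted proteins that attract leukocytes. CXC and CC chemokines differ in the spacing of the first cysteines, and each binds one or several G-protein-coupled receptors on the target cell. Fibroblasts are a known source of several of them: the neutrophil attractants of the Cxcl1 and Cxcl5 type and the monocyte attractants Ccl2 and Ccl7 are made upon stimulation through NF-kB, Cxcl10 upon stimulation with interferons, and Cxcl12 is made by stromal cells without stimulation.

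RNA came from mouse embryonic fibroblasts (MEFs), primary connective-tissue cells grown from embryos, in logarithmic growth and without treatment. CycG1-/- MEFs (G1KO), in which every protein-coding exon of Ccng1 had been removed, were compared with CycG1+/+ (WT) MEFs, and CycG2-/- MEFs (G2KO) with CycG2+/+ (WT) MEFs. The strain label of all cultures was C57BL/6J. The source names of the CycG2 cultures read C57BL/7J. How many embryos gave each culture is not stated. Each comparison had 1 knockout culture and 1 WT culture, hybridised together on 2 two-colour arrays with the dyes exchanged, so that the 4 arrays held 4 RNAs and the WT cultures were not shared. There were no biological replicates, no p-value can be given, and ± is the technical SD between the 2 arrays of a pair. Values for individual arrays are given first for the array with the knockout RNA in Cy5 and then for the array with it in Cy3.

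A gene was tested when its probe was well above background on both arrays in at least 1 genotype. It was called higher or lower when the log2 ratio of knockout to WT was at least 1 (2-fold) with the same sign on each array. The check of the targeted genes bears on every direction below. The log2 ratio of Ccng1 was -6.67 ± 0.13 in the G1KO pair. In the other comparison the log2 ratio of Ccng2 was 0.09 ± 0.27, so its mRNA was not lower at this probe, and the knockout RNA of that pair is therefore named the RNA labelled G2KO, with directions resting on the label. Whether the probe reads the deleted part of Ccng2 was not analysed here. In that RNA Ccng1 was higher than in WT by 2.67 ± 0.03. Xist was higher in the knockout RNA of both pairs (by 7.54 ± 0.43 and 7.24 ± 0.46), while Eif2s3y of the Y chromosome was above background in both WT RNAs and in neither knockout RNA. Genotype, sex of the culture and differences between single cultures cannot be told apart.

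Fewer chemokine genes were above background in the RNA labelled G2KO than in the other RNAs. On both arrays of their pair, 16 of the 34 genes were above background in G1KO and 17 in its WT, against 10 in the RNA labelled G2KO and 17 in its WT. Of all 43379 gene spots, 26871 and 25366 were above background in the RNA labelled G2KO, and 26582 and 27711 in its WT. For G1KO these numbers were 27757 and 26508, and for its WT 26297 and 27737. Each comparison tested 18 genes, 17 in common. The 15 genes tested in neither comparison were Xcl1, Ccl1, Ccl3, Ccl4, Ccl11, Ccl12, Ccl22, Ccl24, Ccl28, Cxcl2, Cxcl4, Cxcl9, Cxcl11, Cxcl13 and Cxcl15. Of these, 13 were above background on no array, and Cxcl15 and Ccl28 were above it on 1 of 2 arrays in G1KO. Detection limits these statements, because a gene below background may still be expressed at a low level.

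In G1KO, 3 of the 18 tested genes were called higher (16.7%) and 2 lower (11.1%), where 1.99% and 3.80% of the 25541 probes tested were called higher and lower. The genes called higher were Cxcl5, Ccl17 and Cx3cl1, and those called lower were Ccl20 and Cxcl16. The median log2 ratio of the 18 genes was 0.13, against 0.00 over all probes tested. In the G2KO pair more genes were called lower than higher. Of 18 tested genes, 8 were called lower (44.4%) and 2 higher (11.1%), where 4.06% and 2.31% of 25431 probes were. The genes called lower were Cxcl5, Ppbp, Cxcl1, Cxcl10, Ccl2, Ccl7, Ccl27 and Ccl25, and those called higher were Cxcl14 and Cx3cl1. The median was -0.78, against -0.01 over all probes tested. With the log ratio of the scanner software in place of the ratios used here, 13 genes were lower and 3 higher in the RNA labelled G2KO, with a median of -1.92, and in G1KO 5 were higher and 3 lower. Among the 9 genes above background in both RNAs of the G2KO pair, 4 were lower and 2 higher. The other tested genes of that pair passed the filter through the WT RNA alone, except Ccl17, which passed through the RNA labelled G2KO. For the genes that passed through WT the filter favoured a lower direction, and the count of 8 and the median of -0.78 include them. The shares over all probes above belong to the ratios and filter used here. None is given for the scanner's ratio or for the 9 genes above background in both RNAs. Between the comparisons, 13 genes were called in at least 1 and 2 in both: Cx3cl1 in the same direction and Cxcl5 in opposite directions.

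**Figure D1:**
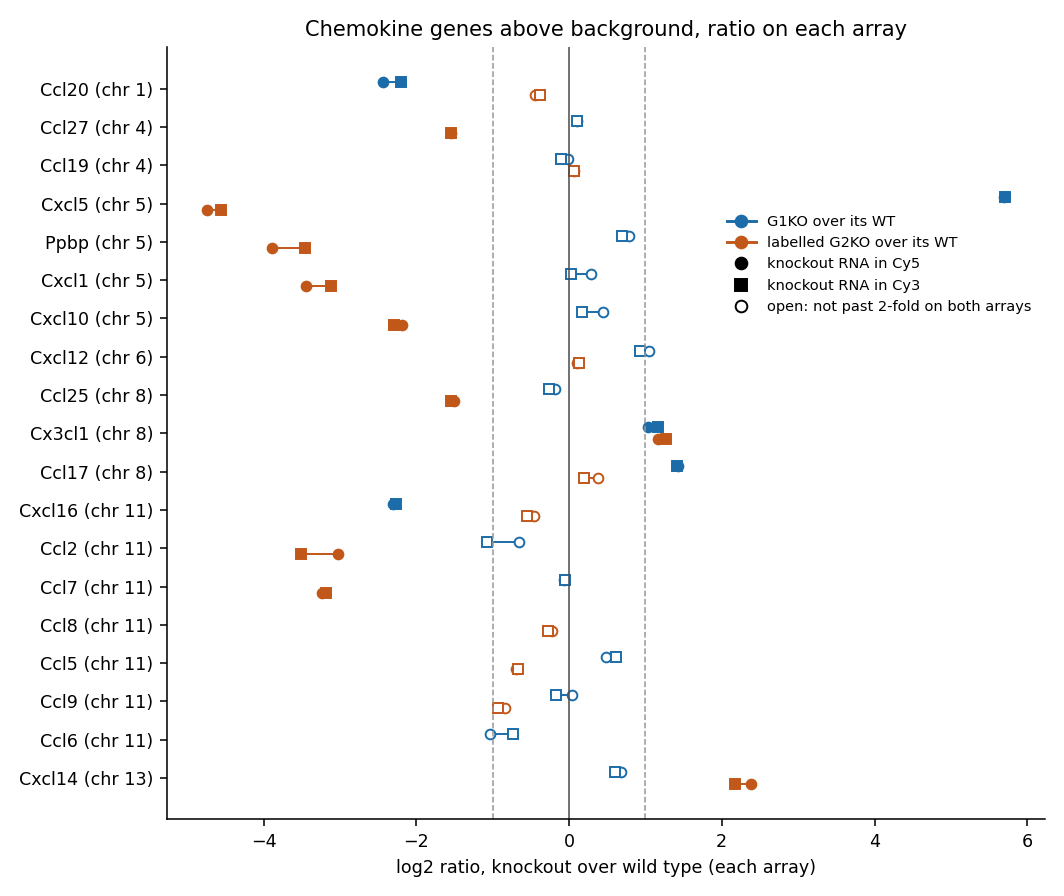
Log2 ratio of knockout to WT RNA (x axis) on each array for the 19 chemokine genes tested in at least 1 comparison (y axis, by chromosome). Circles and squares are the arrays with the knockout RNA in Cy5 and Cy3, filled where both arrays passed 2-fold (dashed lines), and Cxcl5 lies at 5.70 in G1KO but at -4.65 in the G2KO pair.

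The promoter sequences available in RefSeq (GRCm38.p6) are shown for 4 CXC genes of chromosome 5, of which 3 were called lower in the RNA labelled G2KO (Ppbp, Cxcl1 and Cxcl10) and 1, Cxcl2, was below background on all arrays although it lies next to Cxcl1. Each sequence holds the 250 bases before the transcription start, 5′ to 3′ on the strand of the gene: Ppbp at chr5:90768268-90768517, Cxcl1 at chr5:90890995-90891244 and Cxcl2 at chr5:90903649-90903898, all on the plus strand, and Cxcl10 at chr5:92348890-92349139 on the minus strand. Capitals mark letters that match 1 of 3 motifs searched on both strands, namely GGGANNTTC (like a kappa-B site, which NF-kB binds), GAAANNGAA (like an interferon-response element) and TATAAA (like the core promoter element of that name).
Ppbp: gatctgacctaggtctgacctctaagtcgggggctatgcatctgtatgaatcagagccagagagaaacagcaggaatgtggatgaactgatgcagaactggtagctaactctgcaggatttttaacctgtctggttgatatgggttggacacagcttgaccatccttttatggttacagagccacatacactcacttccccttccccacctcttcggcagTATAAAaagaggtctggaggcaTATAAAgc
Cxcl1: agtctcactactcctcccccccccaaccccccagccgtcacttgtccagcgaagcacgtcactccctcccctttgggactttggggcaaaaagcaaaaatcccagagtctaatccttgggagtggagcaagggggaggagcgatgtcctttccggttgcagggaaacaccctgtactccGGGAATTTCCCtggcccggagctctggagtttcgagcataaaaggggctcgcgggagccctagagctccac
Cxcl2: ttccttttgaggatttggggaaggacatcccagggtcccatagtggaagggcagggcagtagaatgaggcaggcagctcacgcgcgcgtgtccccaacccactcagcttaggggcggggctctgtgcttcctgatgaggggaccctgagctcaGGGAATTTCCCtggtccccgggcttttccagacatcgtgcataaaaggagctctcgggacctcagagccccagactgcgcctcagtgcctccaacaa
Cxcl10: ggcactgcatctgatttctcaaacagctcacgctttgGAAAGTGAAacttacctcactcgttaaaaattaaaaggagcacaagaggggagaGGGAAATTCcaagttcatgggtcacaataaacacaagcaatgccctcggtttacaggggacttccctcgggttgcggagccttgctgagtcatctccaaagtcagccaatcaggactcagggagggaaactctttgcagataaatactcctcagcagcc

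The kappa-B-like letters were present in 3.23% of the 32851 promoters of the table. Among the 25 chemokine genes with an entry they were present in 5, which were Cxcl1, Cxcl2, Cxcl9, Cxcl10 and Ccl1. These 25 genes had 28 promoters in the table, and a gene was counted when any of its promoters matched. The shares of all promoters given here count each promoter separately. In Cxcl1 the run GGGAATTTCCC matched on both strands from base 71 to base 61 before the start, and the same run was found in Cxcl2 from base 97 to base 87. Thus both a gene that was above background in 3 of the 4 RNAs and a neighbour that was above it in none carried the same letters. The interferon-response-like letters were found in 6 genes, Cxcl9, Cxcl10, Cxcl14, Ccl1, Ccl3 and Ccl19, against 7.13% of all promoters. In Cxcl10 they lay from base 213 to base 205 before the start, upstream of the kappa-B-like match at bases 159 to 151. Ppbp held TATAAA at bases 30 to 25 and again at bases 8 to 3, and these letters were found in 9 of the 25 genes and in 12.4% of all promoters. A match describes the letters alone and is not evidence that a factor binds there. There was no entry for Ccl2, Ccl4, Ccl5, Ccl7, Ccl11, Ccl24, Cxcl5, Cxcl11 and Cxcl16.

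The neutrophil attractants were examined first. Cxcl5, Ppbp and Cxcl1, ligands of Cxcr2, lie with Cxcl4 (platelet factor 4), Cxcl15 (lungkine) and Cxcl2 within 144.4 kb of chromosome 5 (91836379 to 91980767, build mm8, as are all probe positions that follow). Cxcl5 was called in both comparisons and in opposite directions. In G1KO its log2 level was 12.56 and 12.41, against 6.86 and 6.70 in WT. All 4 values were above background and the RNAs did not overlap. The log2 ratio was 5.70 and 5.71 (mean 5.70 ± 0.01), a 52.1-fold higher level in G1KO, and the scanner software gave a larger log2 ratio of 7.09. In the G2KO pair the WT had log2 levels of 10.74 and 11.10, and the RNA labelled G2KO had 6.00 and 6.54, of which 1 of 2 arrays was above background. The log2 ratio was -4.74 and -4.56 (-4.65 ± 0.13), against -8.05 with the scanner software. The WT RNAs themselves differed at this gene: the WT of the G2KO pair was higher than the WT of the G1KO pair by 4.14 ± 0.37 on the log2 scale, measured within each dye.

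Ppbp, whose product is processed to the neutrophil attractant NAP-2, followed Cxcl5 in the RNA labelled G2KO but was not called in G1KO. Its log2 level was 9.80 and 9.86 in the WT of the G2KO pair and 5.90 and 6.41, not above background, in the RNA labelled G2KO. It was therefore at least 12.6-fold lower, with a log2 ratio of -3.67 ± 0.31 (-7.51 with the scanner software). In G1KO the log2 level was 6.99 and 6.78, above background on both arrays, whereas in WT it was 6.21 and 6.09 and not above background. The log2 ratio of 0.78 and 0.69 corresponded to a level at least 1.67-fold higher, short of the 2-fold threshold, and the scanner software gave 2.90, past it. Like Cxcl5, Ppbp was brighter in the WT of the G2KO pair than in that of the G1KO pair, at least 12.8-fold, the latter being below background.

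Cxcl1, the neutrophil attractant KC, was below background in the RNA labelled G2KO. Its log2 level there was 5.78 and 6.42, against 9.22 and 9.53 in WT. This made it at least 9.14-fold lower (log2 ratio -3.28 ± 0.23, and -7.06 with the scanner software). In G1KO the levels of 8.71 and 8.62 lay just above those of WT, 8.42 and 8.59, and the log2 ratio of 0.29 and 0.03 was not called. The difference of Cxcl1 between the WT RNAs was 0.87 ± 0.11.

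Cxcl10, which attracts activated T cells through Cxcr3, lies between Cxcl9 and Cxcl11 in a second cluster of the same chromosome (93398365 to 93436448), and both neighbours were below background on all arrays. The log2 level of Cxcl10 in the RNA labelled G2KO was 6.16 and 6.44, not above background, against 8.35 and 8.73 in WT. It was at least 4.72-fold lower, with a log2 ratio of -2.19 and -2.29 (-2.24 ± 0.07, and -4.96 with the scanner software). In G1KO the log2 ratio was 0.44 and 0.17, with levels of 9.27 and 9.08 against 8.83 and 8.92. Thus each tested gene of the chromosome 5 clusters was lower in the RNA labelled G2KO, and 1 of them, Cxcl5, was called higher in G1KO. In the G2KO pair each of them passed the detection filter through the WT RNA alone. The filter itself therefore favoured a lower direction, and the shared direction is not separate support.

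These clusters lie close to Ccng2 on the chromosome. The probe of Cxcl5 was 2.51 Mb from that of Ccng2, that of Cxcl1 2.38 Mb, and that of Cxcl10 0.93 Mb. Within 10 Mb of Ccng2, 15 of 158 other probes tested (9.49%) were called lower and 4 higher (2.53%) in the RNA labelled G2KO. Over all probes tested the shares were 4.06% and 2.31%. In G1KO, where Ccng2 was not the targeted gene, 15 of 166 probes (9.04%) were called lower and 3 higher (1.81%) in the same interval. Over all probes tested the G1KO shares were 3.80% and 1.99%. The part of the interval in the result was not tested.

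**Figure D2:**
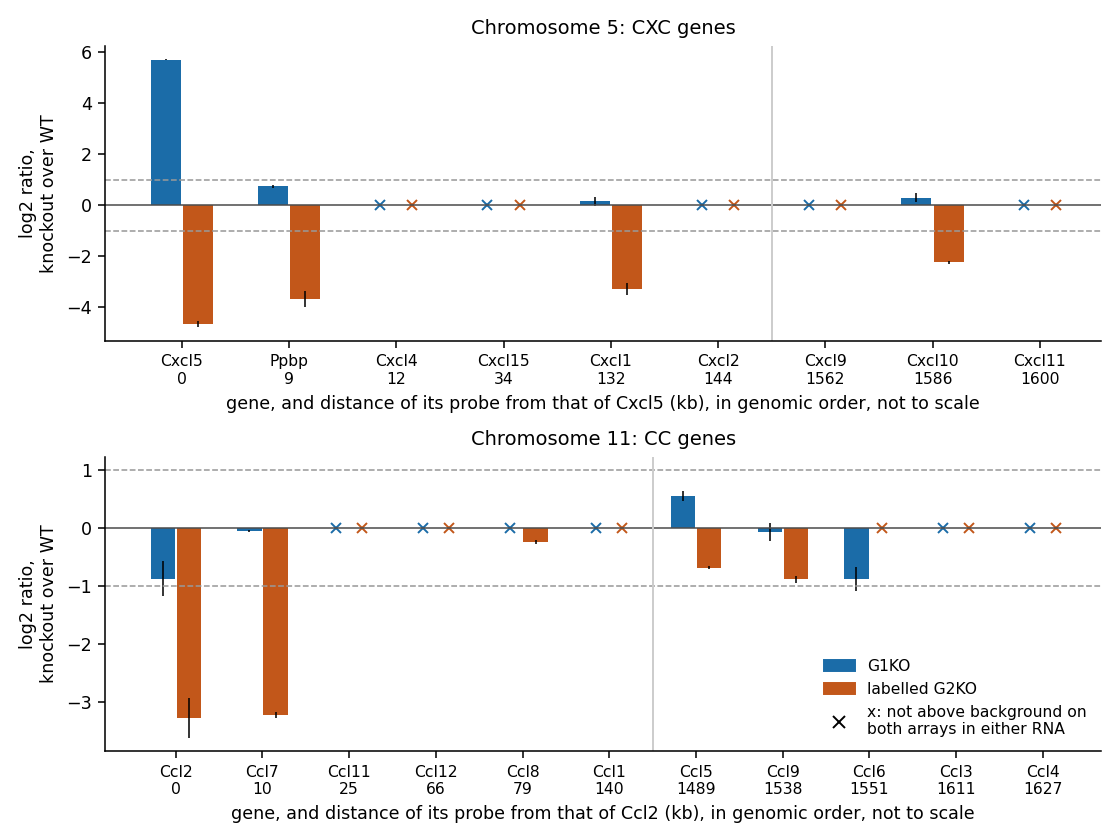
Log2 ratio of knockout to WT RNA (y axis; bars are the mean and error lines the SD of 2 arrays) for the chemokine genes clustered on chromosomes 5 and 11, in genomic order with the probe distance in kb (x axis). Crosses mark genes not above background on both arrays in either RNA. Each of the 4 tested genes on chromosome 5 lies below -2 in the RNA labelled G2KO. In that pair these genes were above background on both arrays in WT alone.

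Among the CC chemokines, Ccl2 and Ccl7, which attract monocytes through Ccr2, were called lower in the RNA labelled G2KO and not in G1KO. They lie at one end of a chromosome 11 cluster (81853343 to 81993088) together with Ccl11, Ccl12, Ccl8 and Ccl1. The log2 level of Ccl2 was 14.50 and 14.64 in the WT of the G2KO pair and 11.47 and 11.13 in the RNA labelled G2KO, so it remained above background while its log2 ratio was -3.03 and -3.51 (-3.27 ± 0.34). The log2 level of Ccl7 was 11.24 and 11.28 in that WT and 7.99 and 8.10 in the RNA labelled G2KO, with a log2 ratio of -3.21 ± 0.05, and its other probe gave -3.26 ± 0.01. In G1KO, Ccl2 had log2 levels of 13.81 and 13.51 against 14.47 and 14.60. The log2 ratio was -0.65 and -1.08 (-0.87 ± 0.30), so 1 of 2 arrays passed 2-fold and the gene was not called. For Ccl7 the log2 ratio in G1KO was -0.05 ± 0.01. Unlike Cxcl5 and Ppbp, Ccl2 and Ccl7 had like levels in the WT RNAs, which differed by 0.04 ± 0.01 and 0.15 ± 0.06. Ccl8, a further monocyte attractant, was near background, with a log2 ratio of -0.24 ± 0.04 in the G2KO pair (-1.58, past 2-fold, with the scanner software), and was not tested in the G1KO pair.

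The adjacent cluster of chromosome 11 (83341989 to 83480804) holds Ccl5, Ccl9, Ccl6, Ccl3 and Ccl4, and no gene of it was called in either comparison. Ccl5 (RANTES), a T-cell and monocyte attractant, had log2 ratios of 0.55 ± 0.08 (G1KO) and -0.68 ± 0.02 (G2KO pair), of which the latter rested on an RNA labelled G2KO above background on 1 of 2 arrays. Ccl9 had -0.07 ± 0.15 and -0.88 ± 0.06. Ccl6 was above background in the WT of the G1KO pair (7.05 and 7.06), was above it on 1 of 2 arrays in G1KO (6.02 and 6.33) and had a log2 ratio of -0.88 ± 0.21. The scanner software gave -2.74 for Ccl6 in G1KO, and -2.04 and -1.23 for Ccl5 and Ccl9 in the RNA labelled G2KO, all past 2-fold.

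Ccl20 and Cxcl16 were called lower in G1KO and not in the RNA labelled G2KO. Ccl20, the ligand of Ccr6 on dendritic and T cells, lies on chromosome 1 (82997949 to 82998008). Its log2 level was 8.29 and 8.50 in the WT of the G1KO pair and 5.86 and 6.29, not above background, in G1KO, which made it at least 4.98-fold lower (log2 ratio -2.32 ± 0.16, and -5.32 with the scanner software). In the G2KO pair the WT had only 6.63 and 6.74, and the RNA labelled G2KO was not above background, with a level at least 1.33-fold lower. Cxcl16, a membrane-bound chemokine and the ligand of Cxcr6, is read on chromosome 11 (70272214 to 70274955). Its log2 level fell from 10.04 and 10.06 in WT to 7.73 and 7.80 in G1KO, a log2 ratio of -2.28 ± 0.04, and its other probe gave -2.13 ± 0.00. In the G2KO pair it was 6.65 and 6.88 in WT and below background in the RNA labelled G2KO, at least 1.42-fold lower. The WT of the G2KO pair held less of both than the WT of the G1KO pair, with log2 differences of -1.71 ± 0.07 for Ccl20 and -3.28 ± 0.15 for Cxcl16. For both genes the scanner software gave a ratio past 2-fold in the RNA labelled G2KO, -1.80 for Ccl20 and -3.13 for Cxcl16.

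Of the genes in the chromosome 8 cluster (97639938 to 97701058), Cx3cl1 was called higher in both comparisons, which with the ratios used here held for no other chemokine. With the scanner software's ratio Ccl17 and Cxcl14 were also past 2-fold higher in both comparisons, and Ccl20 and Cxcl16 past 2-fold lower in both. Cx3cl1 (fractalkine) is made as a membrane protein with an adhesive stalk and binds Cx3cr1. Its log2 level was 13.19 and 13.33 in G1KO against 12.15 and 12.17 in WT, and 12.26 and 12.38 in the RNA labelled G2KO against 11.10 and 11.11 in WT. The log2 ratios were 1.10 ± 0.10 and 1.21 ± 0.08, 2.14-fold and 2.32-fold. Although the knockout was higher on each of the 4 arrays, the level in the RNA labelled G2KO was close to that of the WT of the other pair, since the WT RNAs differed by -1.05 ± 0.00. The other probe (97661971 to 97662030) gave 0.16 ± 0.06 in G1KO, not called, and was not tested in the other comparison. That probe was near background, with a mean log2 brightness of 6.32 against 12.22 for the probe used. WT was above background at it on 1 of 2 arrays, so it cannot decide whether the call holds. With median centring in place of loess the means were 1.13 and 1.31, with 1 array of each pair under 2-fold. Ccl17, which attracts Ccr4-bearing T cells, was called higher in G1KO, with log2 levels of 8.22 and 8.07 against 6.79 and 6.66 in WT (log2 ratio 1.42 ± 0.01, and 2.51 with the scanner software). In the G2KO pair the RNA labelled G2KO had 6.68 and 6.42, WT was above background on 1 of 2 arrays, and the log2 ratio was 0.29 ± 0.12, against 1.41 with the scanner software, which is past 2-fold. Ccl22, which shares the receptor Ccr4, was below background on all arrays.

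**Figure D3:**
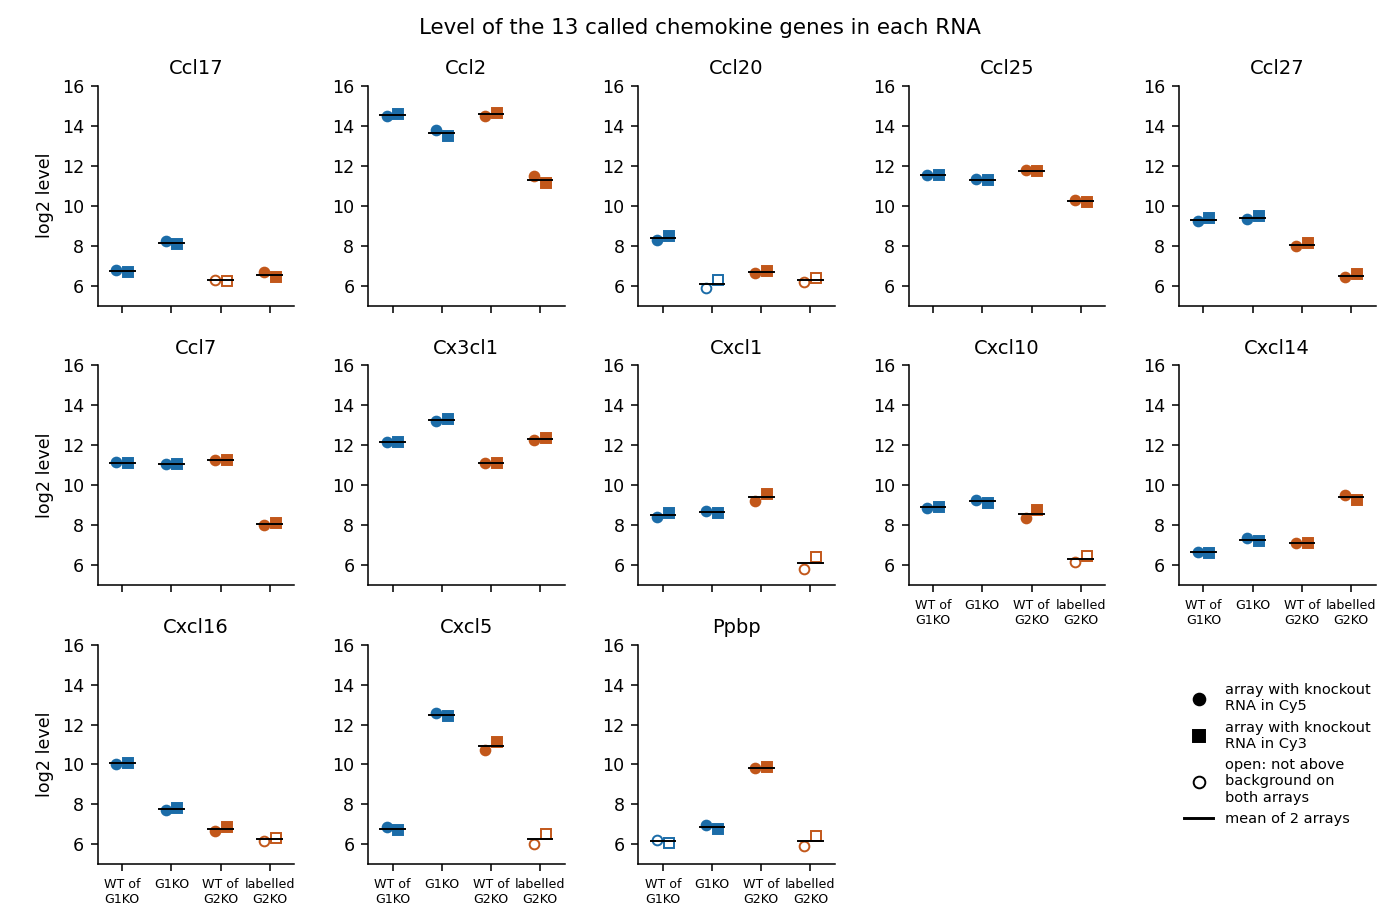
Log2 level (y axis, after loess and between-array normalisation) of the 13 called chemokine genes in the 4 RNAs (x axis). Circles and squares are the arrays of a pair, open where the RNA was not above background on both, and lines are means; Cxcl5 differs between the WT RNAs by 4.14, and Ppbp is above background in 1 of them.

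The chemokines known for constitutive expression in tissues differed among themselves. Cxcl14, which is made by epithelium and stroma, was called higher in the RNA labelled G2KO, with log2 levels of 9.51 and 9.25 against 7.12 and 7.08 in WT (log2 ratio 2.38 and 2.17, mean 2.28 ± 0.15, and 3.31 with the scanner software). In G1KO its log2 ratio was 0.68 and 0.60, in the same direction but under 2-fold, whereas the scanner software gave 1.53, past it. Ccl27 (RefSeq Ccl27a), a skin chemokine that binds Ccr10, was called lower in the RNA labelled G2KO, with 6.42 and 6.59 against 7.96 and 8.13 (log2 ratio -1.54 ± 0.00, and -3.23 with the scanner software), and had 0.10 ± 0.00 in G1KO. Ccl25, the thymus and gut chemokine that binds Ccr9, had 10.29 and 10.19 against 11.79 and 11.73 (log2 ratio -1.52 ± 0.03), and its other probe gave -1.16 ± 0.12. In G1KO the log2 ratio of Ccl25 was -0.22 ± 0.06. Ccl19, a ligand of Ccr7, had -0.06 ± 0.06 and 0.07 ± 0.00.

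Cxcl12 (SDF-1), which keeps progenitor cells in bone marrow through Cxcr4, gave different results at its 2 probes. The brighter probe (chromosome 6, 117146828 to 117146887) had log2 levels of 15.49 and 15.57 in G1KO against 14.44 and 14.64 in WT. Its log2 ratio of 1.05 and 0.93 (0.99 ± 0.09) fell just short of 2-fold on 1 array. The same probe had 0.10 and 0.13 in the G2KO pair. The other probe (117140075 to 117140134), which carries another accession in the array design, had 0.38 ± 0.16 in G1KO but 1.64 ± 0.16 in the G2KO pair, past 2-fold on both arrays. Which transcripts of Cxcl12 each probe reads was not analysed here. Apart from Cxcl12 and Cx3cl1, no gene had tested probes that differed in sign or call.

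The WT RNAs differed at several of these genes. Of 19 genes above background on both arrays in at least 1 WT RNA, 2 were at least 2-fold higher within each dye in the WT of the G2KO pair (10.5%) and 6 lower (31.6%), where 5.54% and 5.53% of 26035 probes were. Cxcl5 and Ppbp were the higher ones. Cxcl16, Ccl20, Cxcl12 (-1.62 ± 0.15), Ccl27 (-1.25 ± 0.02), Cx3cl1 and Ccl6 were the lower ones. Ccl6 was below background in the WT of the G2KO pair, where it was at least 1.96-fold lower. For Cxcl5, the WT of the G2KO pair (10.92) stood nearer to G1KO (12.49) than to the WT of the G1KO pair (6.78). These RNAs were hybridised on different arrays, and no ratio was measured between them directly.

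The receptors, from a list of 25 genes, were mostly below background. Of these, 5 were tested in each comparison. For this list and those that follow, the shares over all probes tested were 3.80% lower and 1.99% higher in G1KO. In the G2KO pair they were 4.06% and 2.31%. The medians over all probes tested were 0.00 in G1KO and -0.01 in the G2KO pair. No receptor was called in G1KO, with log2 ratios from -0.39 for Ccrl2 to 0.42 for Ackr3. The G2KO pair had 2 of 5 called lower. Cxcr6, the receptor of Cxcl16, had a log2 ratio of -3.19 ± 0.20, and Ackr3, which takes up Cxcl12 and Cxcl11 without signalling through G proteins, had -1.97 ± 0.14. Both were above background in both RNAs of that pair. Cxcr2, Ccr2, Cxcr3, Ccr6, Cx3cr1, Ccr4 and Cxcr4, the receptors of most chemokines described here, were tested in neither comparison.

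Of 16 genes that process chemokines or present them on heparan sulphate, 15 were tested in each comparison. In G1KO, 3 were called lower and 1 higher. Dpp4, a peptidase that trims the amino end of Cxcl10 and Cxcl12, had -2.80 ± 0.14, the syndecan Sdc4 had -1.31 ± 0.16, and the hyaluronan-binding protein Tnfaip6 had -1.12 ± 0.08, whereas the glypican Gpc1 had 1.20 ± 0.02. The RNA labelled G2KO had 4 called lower and none higher. Mmp2, a metalloprotease that cleaves Ccl7 and Cxcl12, had -3.38 ± 0.17, Sdc2 had -1.60 ± 0.09, Tnfaip6 had -1.18 ± 0.11 and Gpc1 had -1.15 ± 0.07. Gpc1 was thus called in opposite directions and Tnfaip6 in the same direction. The medians were -0.18 and -0.10.

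Of 26 NF-kB subunits, regulators and targets, 25 were tested in each comparison, and most were not called. In the RNA labelled G2KO, 5 were called lower and none higher, with a median of -0.23, against -0.01 over all probes tested. These were Birc3, an inhibitor of apoptosis (-2.88 ± 0.11), the nuclear IkB protein Bcl3 (-2.10 ± 0.16), Tnfaip2 (-1.96 ± 0.14), the adaptor Traf1 (-1.48 ± 0.19) and the subunit Relb (-1.21 ± 0.11). Nfkbia, which encodes IkB-alpha, had -1.06 ± 0.14 without passing 2-fold on both arrays, and Rela and Nfkb1 had 0.10 ± 0.22 and -0.23 ± 0.26. In G1KO, 2 were called lower and none higher, with a median of -0.33: Tnfaip3, which encodes the inhibitor A20 (-2.24 ± 0.05), and the adhesion molecule Icam1 (-1.09 ± 0.08).

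Among 25 cytokines that induce chemokines and their receptors, 18 were tested in each comparison. Tnf, Il1a, Il1b, Il17a and Ifng were tested in neither. In G1KO the cytokines Il33 (-2.24 ± 0.21), Il6 (-1.87 ± 0.03) and Csf3 (-1.46 ± 0.02, above background on 1 of 2 arrays in G1KO) were called lower, and Il1rl1, the receptor of Il33, was called higher (3.02 ± 0.01). In the RNA labelled G2KO, 5 were called lower and none higher. Il1rl1 had -4.34 ± 0.16, the pattern receptors Tlr2 and Tlr4 had -2.25 ± 0.02 and -1.70 ± 0.05, the cytokine Tslp had -1.74 ± 0.14, and the Tnf receptor Tnfrsf1b had -1.06 ± 0.05. Tnfrsf1a and Il1r1, the main receptors of Tnf and interleukin 1 on fibroblasts, had 0.05 ± 0.01 and -0.11 ± 0.23. Of 12 interferon response drivers, 11 were tested in each comparison, and Ifngr2 in the RNA labelled G2KO (-1.59 ± 0.10) was the only one called.

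**Figure D4:**
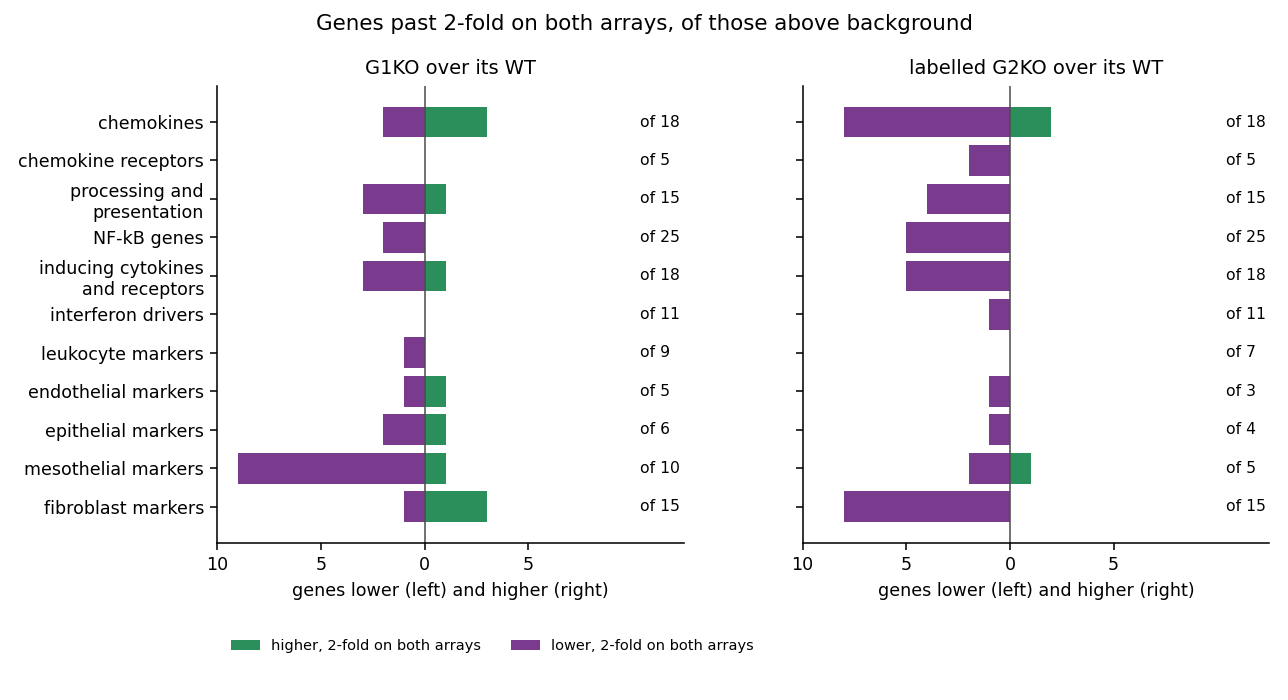
Number of genes past 2-fold on both arrays (x axis, lower to the left and higher to the right) among the chemokines and 10 other lists (y axis), with the number tested at the right of each bar. The RNA labelled G2KO has 8 of 18 chemokines and 8 of 15 fibroblast markers called lower, and G1KO has 9 of 10 mesothelial markers called lower.

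Lists of cell type markers were examined beside the chemokines. In these bulk RNAs, fewer cells of a type and less RNA per cell cannot be told apart. Of 22 leukocyte markers, 9 were tested for G1KO, against 7 for the G2KO pair. Ptprc (CD45), Adgre1, Itgam, Spi1 and Tyrobp were tested in neither. Ms4a3 (-3.66 ± 0.14 in G1KO) was the only one called. The other leukocyte markers tested in G1KO had log2 ratios from -0.64 (Cd14) to 0.12 (Itga2b). The summed level of the leukocyte markers was 2030 to 2150 in G1KO against 3410 to 3630 in WT, and 2520 in the RNA labelled G2KO against 2400 to 2480 in WT. Of 15 fibroblast markers, all above background, 8 were called lower in that RNA, led by the growth factor receptor Pdgfra (-4.63 ± 0.09), the matrix protein Postn (-4.19 ± 0.07), Thy1 (-3.22 ± 0.18) and the collagen Col3a1 (-2.90 ± 0.14). The summed level of the list was 351000 to 504000 against 913000 to 939000 in WT. In G1KO, 3 fibroblast markers were called higher and 1, Dcn (-4.05 ± 0.12), lower. Their summed level was lower in G1KO as well, at 438000 to 596000 against 697000 to 707000 in WT. Of 10 mesothelial markers, 9 were called lower in G1KO, among them Gpm6a (-6.19 ± 0.17) and Upk1b (-5.51 ± 0.14), while Krt19 (2.90 ± 0.11) was called higher, and their summed level was 27600 to 35200 against 223000 to 278000 in WT. In the RNA labelled G2KO 5 mesothelial markers were tested, 2 called lower and 1 higher. The summed level of the mesothelial list was higher there, at 4130 to 4450 against 2160 to 2210 in WT. Epithelial and endothelial lists had at most 3 genes called in a comparison. Pecam1, Cdh5 and Epcam, defining markers of endothelium and epithelium, were tested in neither. The part of these markers in the chemokine differences was not tested.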

How the data were processed

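Gene expression was measured in 4 RNAs on 4 two-colour Agilent Whole Mouse Genome arrays of 1 slide and scan, each pair of arrays holding the same 2 extracts with the dyes exchanged and counted as 1 replicate. The deposited scanner files hold the intensity of each spot in Cy5 and Cy3 with its local background and a log10 ratio made by the authors with Agilent Feature Extraction, which is version 9.1 in the labels and 10.5.1.1 in the headers. The table deposited with it holds the same log10 ratio, turned by the authors to knockout over WT (r = 0.999999 against the scanner files on each array, median 0). Scale, centring and direction were thus known.

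Intensities were background-corrected (normexp, offset 50) and loess-normalised within arrays with limma 3.58.1 in R 4.3.3, control and outlier spots being left out. Ratios are log2 of knockout over WT, averaged over the pair. Levels are log2 intensities after loess and Aquantile. No spot was saturated. Per array and channel, 25366 to 27757 of 43379 gene spots were well above background, and signal over background limits the precision. Where an RNA was not above background on either array, the bound sets the other RNA against the higher of the dim level and the lowest level well above background, averaged over the pair as log2, and may hold dye bias. The steps were tested on simulated data.

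Probe positions are those of the array design (mm8), in clusters where neighbours lay within 1 Mb. Exons and protein sequences were not analysed here. Names and promoters came from RefSeq (GRCm38.p6). All members are accounted for, those called with full values, and of each other list at most 4 called genes per comparison and direction were chosen by size, with further genes named after their values were seen. The members and lists were chosen with earlier results of these data known. Alternatives were a normexp offset of 16, the scanner's log ratio, the series table, median centring, filters on dim probes, each array alone, the median of a gene's probes, and thresholds of 1.5-fold and 4-fold.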

Additional observations from a re-analysis of the deposited data

Results flagged for a closer look

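With the ratios used here, Cxcl5 was the only chemokine called in both comparisons in opposite directions. Its log2 ratio was 5.70 in G1KO, against -4.65 in the RNA labelled G2KO, and 7.09 and -8.05 with the scanner's log ratio. Ppbp, Ccl5, Cxcl1, Cxcl10, Ccl27 and Ccl19 also had opposite signs on every array of the pairs, but with these ratios none was called in both comparisons. With the scanner's log ratio Ppbp was past 2-fold in both, at 2.90 and -7.51. The difference between the comparisons was not tested, because each rests on 1 culture per genotype, and the WT RNAs differed at Cxcl5 by 4.14.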

How the results depend on the processing

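No paired analysis was possible because each comparison had 1 culture per genotype and the arrays of a pair were averaged. In G1KO the 3 genes called higher became 5 with the scanner's log ratio, 5 with the series table, 1 at 4-fold and 6 at 1.5-fold. They became 4 with an offset of 16 and on the array with the knockout RNA in Cy5 alone. With median centring and with the median of a gene's probes they became 2. The 2 called lower became 1 where both RNAs had to be above background and 4 at 1.5-fold. They became 3 with an offset of 16, the scanner's log ratio, the series table and either array alone. The G1KO median of 0.13 became 0.21 with the scanner's log ratio, 0.21 with the series table and 0.01 without a filter on dim probes. Under the other settings it lay from 0.07 to 0.20. In the RNA labelled G2KO the 8 genes called lower became 13 with the scanner's log ratio, 13 with the series table and 4 where both RNAs had to be above background. They became 10 with an offset of 16 and at 1.5-fold, 7 with median centring and 6 at 4-fold. The 2 called higher became 1 with median centring, 1 at 4-fold, and 3 with the scanner's log ratio and the series table. The median of -0.78 became -1.06 with an offset of 16, -1.92 with the scanner's log ratio, -1.92 with the series table, -0.88 where both RNAs had to be above background, -0.02 without the filter and -0.71 with the median of a gene's probes. With median centring and with either array alone it lay from -0.81 to -0.77. The stricter filter tests 9 genes in that pair, and omitting the filter adds genes below background. The cause of the other shifts was not tested. Of the values of single genes under alternatives, 280 kept their direction and side of the threshold, 25 passed it newly, 4 lost it and 3 reversed. Not all of these were separate checks. The filters on dim probes only choose genes and leave the ratio unchanged. A gene with 1 probe keeps its value under the median of probes, and the series table repeats the scanner's log ratio. Those that reversed were Ccl7 in G1KO, to 0.02 with the scanner's log ratio and 0.02 with the series table, and Ccl9 in G1KO, to 0.04 on the array with the knockout RNA in Cy5. Those lost were Cx3cl1 in G1KO with median centring and with the median of its probes (0.63), of which 1 was near background. Also lost were Cx3cl1 and Ccl25 (-1.43) in the RNA labelled G2KO with median centring. The array pairs measure labelling and hybridisation error alone.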
